A study of Mus musculus with 5 samples.

Results

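The genes described here are the replication-dependent histone genes of the mouse, taken as every row of the deposited tables whose symbol starts with Hist1h, Hist2h, Hist3h or Hist4h. There were 67 such rows among 32793 gene rows, and 2 of them (Hist1h2al and Hist3h2bb-ps) are annotated as processed pseudogenes. They were read in bulk RNA sequencing of 5 samples of colon spheroids, three-dimensional epithelial cultures grown from mouse colon. The mutant group (NDD) held 2 libraries from mice that express the dimerization-deficient alleles Notch1DD and Notch2DD, and the wild-type group (WT) held 3 libraries. All 5 came from mice of a mixed strain background, for the most part C57Bl6 with a share of FVB. The labels give neither the age of the mice nor which libraries came from separate animals, so p-values measure only the spread between these libraries. RNA was prepared with a commercial kit and sequenced from a stranded mRNA library. In bulk samples, fewer cells of a type and less RNA per cell cannot be told apart.

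Histones are the proteins around which DNA is wound. Pairs of H2A with H2B and of H3 with H4 form the core of the nucleosome, and H1 binds the linker DNA between nucleosomes. The replication-dependent genes lie in clusters of short genes that mostly lack introns, and they are transcribed chiefly in S phase, when new DNA must be packaged. Their mRNAs are unusual in that they normally end after a short stem-loop instead of a poly(A) tail. The stem-loop is bound by SLBP, and the transcript is cut a few bases behind it. A library made from polyadenylated mRNA therefore misses most of this RNA. Some of these genes also make longer, polyadenylated transcripts, which are known from differentiated and resting cells.

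The stem-loops of 7 of the members described below are shown first, because this element decides where the usual transcript ends. Each line is read from the GENCODE M21 transcript (build GRCm38, the same assembly as mm10), with the 16 bases of the stem-loop in capitals and up to 5 flanking bases on either side.
Hist1h2ap: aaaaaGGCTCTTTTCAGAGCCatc
Hist1h2ao: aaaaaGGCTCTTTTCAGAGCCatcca
Hist2h2aa2: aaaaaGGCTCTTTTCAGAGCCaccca
Hist2h3c1: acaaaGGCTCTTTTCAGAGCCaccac
Hist1h1c: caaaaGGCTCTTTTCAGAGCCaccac
Hist3h2a: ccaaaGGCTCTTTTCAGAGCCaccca
Hist1h4i: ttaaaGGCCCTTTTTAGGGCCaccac

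A search for the histone stem-loop consensus on the sense strand found it in the annotated transcript of 43 of the 67 members. Of these, 23 carried the same 16 bases as Hist1h2ap, and all 8 spellings found keep the paired stem. Among the other protein-coding genes of the annotation, 0.11% had a match in any protein-coding transcript, a rule by which 44 members matched. In 20 members the annotated transcript ended within 60 bases of the stem-loop, as in Hist1h2ap (3 bases after it), Hist1h2ao (31 bases) and Hist2h2aa2 (35 bases). In 23 members it ran on, by 1643 bases in Hist3h2a, 1167 in Hist2h3c1, 840 in Hist1h1c and 330 in Hist1h4i. In the other 24 members no match was found in the 1 transcript searched for each member, the longest. Some of these transcripts are short, such as Hist1h4k (312 bases) and Hist1h2ai (393 bases), and may stop before the element. The lack of a match therefore does not show that the gene lacks a stem-loop. A polyadenylation signal (AATAAA or ATTAAA, sense strand) lay in the last 50 bases of 17 members, against 72.3% of the other protein-coding genes. Of these 17, 12 had their stem-loop over 60 bases upstream of the end, 1 had it within 60 bases and 4 had no match. Which transcript models the authors used is not given in the sources used here, so these features describe the annotation and not the reads. For some members the lengths behind the authors' TPM (length-corrected levels) differ from it. In NDD replicate 1, 10 counts of Hist1h1d (7425 bases annotated) gave 1.26 TPM, but 19 counts of Hist1h2ad (572 bases) gave 0.82 TPM. These TPM values thus treat Hist1h2ad as the longer transcript.

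The mRNA libraries read most histone genes weakly and a few strongly. Of the 67 members, 63 had at least 1 count in some library, 36 had at least 1 count in every library, and 13 had at least 10 counts in every library (19.4%, against 37.5% of all rows). The 4 members at 0 in all 5 libraries were Hist1h2aa, Hist1h2ba, Hist2h2ab and the pseudogene Hist3h2bb-ps. At 95% confidence, 0 counts allow a true level of up to 3 counts, which is 0.130 to 0.156 CPM (counts scaled to the same library total) here; this covers counting error only. A further 31 members never reached 10 counts. Members with a count numbered 51 and 46 in NDD and 59, 50 and 56 in WT, at total depths of 19192389 to 23064000 counts. Levels are given in TPM, which the authors corrected for transcript length and library depth. The median member had a mean of 0.972 TPM over the 5 libraries, while the median of the 13501 genes with enough counts to test was 16.5 TPM. A mean of at least 10 TPM was reached by 7 members.

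**Figure D1:**
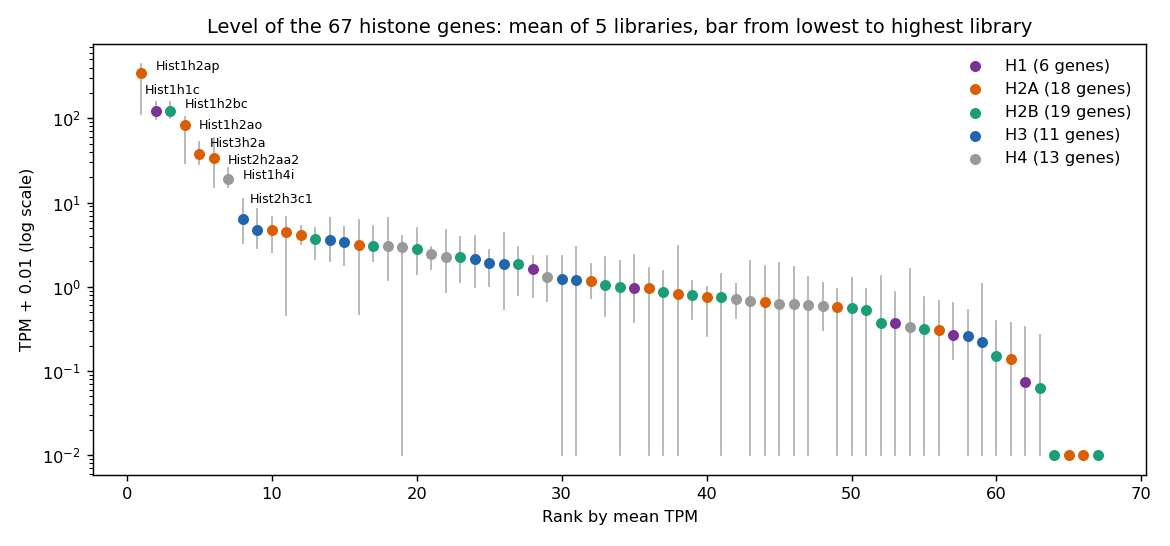
Mean TPM of each of the 67 histone genes over the 5 libraries, plotted on a log scale after adding 0.01 and ordered by rank; points are coloured by histone class and grey bars run from the lowest to the highest library. The level drops from 343 TPM for Hist1h2ap to 6.39 TPM at rank 8, and the 4 genes at the floor have no counts.

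The most abundant member was Hist1h2ap, an H2A gene of the Hist1 cluster (chr13:21833026-21833507, minus strand, GRCm38), with a mean of 343 TPM. It was followed by the linker histone gene Hist1h1c (chr13:23738808-23740367, plus strand) at 124 TPM, the H2B gene Hist1h2bc (chr13:23684199-23692908, plus strand) at 121 TPM and the H2A gene Hist1h2ao (chr13:21810465-21810944, plus strand) at 83.01 TPM. Hist1h1c and Hist1h2bc did not differ beyond their spread over libraries. These 4 genes held 80.6% and 66.96% of the summed member TPM in NDD and 80.3%, 81.4% and 82.0% in WT. The next were Hist3h2a (37.9 TPM), Hist2h2aa2 (33.7 TPM), Hist1h4i and Hist2h3c1 (6.39 TPM), and ranks 9 to 12 lay between 4.07 and 4.74 TPM.

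By class, the 18 H2A genes held 46.0% of all member counts, the 19 H2B genes 25.8%, the 11 H3 genes 5.14% and the 13 H4 genes 2.16%, with the 6 H1 genes between H2B and H3. These shares are pooled over the 5 libraries, and NDD replicate 2 differed: there H2A held 29.0%, H2B 30.7% and H1 30.4%, while H2A held 46.7% to 55.1% in the other 4 libraries. The 54 genes of the Hist1 cluster held 85.6% of the counts, the 9 of Hist2 10.7%, the 3 of Hist3 3.71% and Hist4h4, the only gene of its cluster, 0.0417%. By library, Hist2 held 12.2% and 19.1% in NDD and 5.61% to 8.44% in WT, and Hist1 held 84.4% and 75.1% in NDD and 88.6%, 88.3% and 91.4% in WT. The top gene of each class supplied 97.2% of the counts of its class for H1 (Hist1h1c), 77.9% for H2B (Hist1h2bc), 65.2% for H3 (Hist2h3c1), 58.2% for H2A (Hist1h2ap) and 54.4% for H4 (Hist1h4i), over all 5 libraries. Their order differed by library: Hist1h2ap held more of H2A than Hist2h3c1 held of H3 in each WT library, and less in each NDD library. Of the 6 H1 genes, Hist1h1c alone had at least 10 counts in every library, and among the 13 H4 genes only Hist1h4i did.

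The abundant pair Hist1h2ap and Hist1h2ao cannot be told apart well. The genes share 93.4% of the 31-base sequences of Hist1h2ap, and the ratio of their counts was nearly fixed, at 3.01 and 2.77 in NDD and 2.87, 2.86 and 3.06 in WT. How reads were divided between such copies follows from the estimation of counts, so their sum is the safer value. Of the 67 members, 42 shared at least 50% of their 31-base sequences with another annotated gene. Hist2h2aa2 and Hist2h3c1 share all of them with overlapping predicted genes. Some members also overlap other genes: Hist3h2a lies on the same strand as Trim17, which had 97 and 126 counts in NDD and 64, 91 and 63 in WT, and Hist2h2aa2 lies opposite the predicted genes Gm20632 and Gm47311. Whether strand was used in counting is not given in the sources used here.

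The histone genes were next compared between NDD and WT, the contrast of the study, whose title concerns NOTCH dimerization and upkeep of the intestine. No histone gene passed the test. With a limit of 0.05 on the adjusted p, the quasi-likelihood test of edgeR called 12 of 13501 genes (0.0889%) and 0 of the 24 members with enough counts. DESeq2 called 3 members, all higher in NDD, and 2.54% of its genes (1.53% higher in NDD). Of the 24, 6 had an unadjusted p under 0.05, all 6 higher in NDD, where 6.49% of all genes tested were higher and 4.68% lower at that limit; these 11.2% are the background of the count. The 6 were Hist2h2aa2, Hist2h3c1, Hist1h1c, Hist1h2bq, Hist3h2a and Hist2h2be. The log2 fold change (NDD over WT) was above 0 in 14 of the 24 members and below 0 in 10, with a median of 0.29, beside 49.5% above 0 and a median of -0.0047 over all genes tested. For the same 24 members the median stayed above 0 when an NDD library was left out, at 0.19 (NDD replicate 1 out) and 0.15 (NDD replicate 2 out). Over larger sets that include members with fewer counts it was mostly below 0. It was -0.38 over 63 members with no filter, -0.37 over 63 with DESeq2 and -0.17 over 41 on log2(TPM + 1). It was -0.18 over the 31 tested without NDD replicate 1, but 0.12 over the 30 tested without NDD replicate 2. The groups did not overlap in 8 of the 24 members, 6 higher and 2 lower in NDD, where 32.0% of all genes tested did not overlap (15.8% higher and 16.2% lower). The lowest of the 5 libraries was NDD replicate 2 in 7 of the 24 (34.9% of all genes tested), and the highest was NDD replicate 2 in 11 (33.8%). The other 43 members were left out by the filter on low counts, with at most 21 counts in any library. With no such filter, 63 members were tested and 1, Hist2h2aa2, passed, where 0.302% of all genes did.

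**Figure D2:**
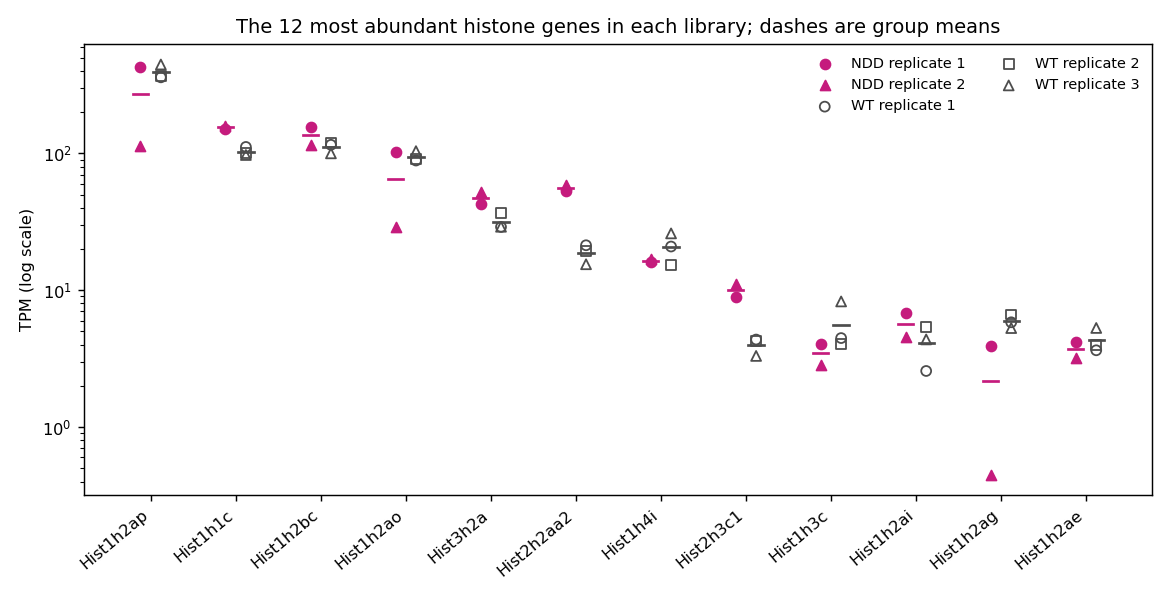
TPM on a log scale in each of the 5 libraries for the 12 most abundant histone genes; filled magenta symbols are NDD, open grey symbols are WT, and dashes are group means. Both NDD libraries lie above all WT libraries for Hist1h1c, Hist3h2a, Hist2h2aa2 and Hist2h3c1, while NDD replicate 2 lies far below the other 4 libraries for Hist1h2ap, Hist1h2ao and Hist1h2ag.

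The member with the largest difference lies in the Hist2 cluster on chromosome 3. Hist2h2aa2 (chr3:96239749-96240276, minus strand), which encodes an H2A, was at 53.1 and 59.1 TPM in NDD and at 21.3, 19.4 and 15.5 TPM in WT. Both NDD libraries were more than 2 times as high as any WT library. Scaled by TMM, its level was 13.9 ± 1.83 CPM (SD, n = 2) in NDD, against 4.50 ± 0.755 CPM in WT (SD, n = 3). The log2 fold change was 1.63 (adjusted p 0.107 by edgeR, SE 0.24), the largest among the members tested. DESeq2 gave an adjusted p of 2.09e-06 for it.

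Hist2h3c1 (chr3:96246685-96248509, plus strand), an H3 gene of the same cluster, was at 8.90 and 11.1 TPM in NDD and at 4.36, 4.27 and 3.31 TPM in WT. The groups did not overlap, and its log2 fold change was 1.37 (adjusted p 0.207 by edgeR, SE 0.26). DESeq2 gave an adjusted p of 0.00124 for it. Its sum with the near copy Hist2h3c2 was 10.6 ± 1.95 CPM (SD, n = 2) in NDD, against 4.44 ± 0.933 CPM in WT (SD, n = 3). The third gene of the cluster with enough counts was the H2B gene Hist2h2be (chr3:96221119-96223738, plus strand). It was at 4.67 and 4.96 TPM in NDD and at 3.16, 3.49 and 2.11 TPM in WT, again without overlap. Its log2 fold change was 0.74 (adjusted p 0.443 by edgeR, SE 0.30). All 3 tested genes of Hist2 were thus higher in NDD, while in the Hist1 cluster 10 of 20 were higher and 10 lower.

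The promoter window of Hist2h2aa2, the member with the largest difference, is shown because it carries the CCAAT box common to histone promoters. The sequence is that of the RefSeq promoter table, with the letters CCAAT (on either strand) in capitals.
Hist2h2aa2 (chr3:96240325-96240624, minus strand, GRCm38.p6): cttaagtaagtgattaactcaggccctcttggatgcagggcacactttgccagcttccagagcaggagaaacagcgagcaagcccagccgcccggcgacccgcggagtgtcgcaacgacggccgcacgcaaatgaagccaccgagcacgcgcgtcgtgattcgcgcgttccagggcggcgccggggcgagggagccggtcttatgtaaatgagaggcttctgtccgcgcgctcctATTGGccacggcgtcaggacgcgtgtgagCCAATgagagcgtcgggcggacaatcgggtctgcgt

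In the other clusters, Hist1h1c and Hist3h2a also had both NDD libraries above all WT libraries. Hist1h1c, a linker histone gene, was at 151 and 158 TPM in NDD and at 111, 100.3 and 97.3 TPM in WT. The gene had a log2 fold change of 0.62 (adjusted p 0.267 by edgeR, SE 0.14). DESeq2 gave an adjusted p of 0.0209 for it. Hist3h2a (chr11:58954685-58956830, plus strand), an H2A gene, was at 42.95 and 51.99 TPM in NDD and at 29.0, 36.4 and 29.1 TPM in WT. Its log2 fold change was 0.64 (adjusted p 0.437 by edgeR, SE 0.25), and part of its reads may belong to the overlapping Trim17. Trim17 itself had a log2 fold change of 0.60 (adjusted p 0.479 by edgeR, SE 0.31).

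Among the H2B genes of Hist1, Hist1h2bq (chr13:21806612-21810197, minus strand) was at 3.04 and 3.92 TPM in NDD and at 1.96, 1.14 and 1.20 TPM in WT. The groups did not overlap, and its log2 fold change was 1.37 (adjusted p 0.398 by edgeR, SE 0.41). With its near copy Hist1h2br added, the log2 fold change was 1.33. Hist1h2bc, the most abundant H2B gene, was at 155 and 115 TPM in NDD and at 116, 120.05 and 100.05 TPM in WT, so that the groups overlapped. Its log2 fold change was 0.30 (adjusted p 0.484 by edgeR, SE 0.17). Hist1h2be had a log2 fold change of 1.05 (SE 0.64), which rested on NDD replicate 2: it was at 0.440 and 2.23 TPM in NDD and at 0.550, 1.20 and 0.750 TPM in WT, and without that library the log2 fold change was -0.10. On the same strand it overlaps Hist1h1e, which had 3 and 19 counts in NDD and 4, 8 and 4 in WT. Part of the reads of Hist1h2be may therefore belong to Hist1h1e.

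The most abundant H2A genes gave another pattern, in which 1 NDD library stood apart. Hist1h2ap was at 429.8 and 113 TPM in NDD and at 359.6, 367 and 446 TPM in WT. Hist1h2ao was at 102 and 29.1 TPM in NDD and at 88.7, 91.7 and 104 TPM in WT. For both genes NDD replicate 1 lay inside the WT range and NDD replicate 2 lay far below it. The sum of the pair was 86.0 and 25.04 CPM in NDD and 72.3, 77.6 and 88.5 CPM in WT, and had a log2 fold change of -0.52 (adjusted p 0.621 by edgeR, SE 0.47). Without NDD replicate 2 the log2 fold change was 0.14 for Hist1h2ap and 0.10 for Hist1h2ao, in a fit that called 0.0866% of its genes. Without NDD replicate 1, with a single NDD library assumed to vary like WT, it was -1.69 (edgeR adjusted p 0.0160) and -1.61 (0.0186), both called, in a fit that called 8.62% of its genes.

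NDD replicate 2 was also the lowest library for Hist1h2ag and Hist1h2ab, H2A genes of Hist1, while it was the highest for Hist1h2ad. Hist1h2ag was at 3.88 and 0.450 TPM in NDD and at 5.83, 6.65 and 5.29 TPM in WT. Its log2 fold change was -1.49 (adjusted p 0.489 by edgeR, SE 0.85), -0.61 without NDD replicate 2 and -4.19 without NDD replicate 1. Hist1h2ab was at 4.04 and 0.460 TPM in NDD and at 6.26, 2.95 and 1.98 TPM in WT. Its log2 fold change was -0.80 (SE 1.01), and 0.09 without NDD replicate 2. Behind the values of NDD replicate 2 stands 1 count for each of these genes. Hist1h2ai (log2 fold change 0.50, SE 0.51) and Hist1h2ae (-0.23, SE 0.43), also H2A genes, had overlapping groups. Hist1h2ad, another H2A gene, was named after its values were seen. It was at 0.820 and 0.970 TPM in NDD and at 0.750, 0.250 and 0.940 TPM in WT, again overlapping (log2 fold change 0.49, SE 0.61).

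The H3 genes of Hist1 had few counts. Hist1h3c, an H3 gene, was at 4.06 and 2.84 TPM in NDD and at 4.47, 4.05 and 8.28 TPM in WT. Its groups did not overlap in CPM, but NDD replicate 1 and WT replicate 2 were nearly equal in TPM (log2 fold change -0.67, adjusted p 0.570 by edgeR, SE 0.52). Hist1h3g had a log2 fold change of -0.97 (SE 0.60) and Hist1h2bj, an H2B gene, one of -0.63 (SE 0.73), both with overlapping groups in CPM. In TPM the groups of Hist1h3g did not overlap, at 2.01 and 2.22 in NDD and 6.46, 2.38 and 4.75 in WT. Hist1h4i, the only well read H4 gene, was at 16.05 and 16.8 TPM in NDD and at 20.9, 15.2 and 26.02 TPM in WT. Its log2 fold change was -0.27 (adjusted p 0.730 by edgeR, SE 0.36).

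**Figure D3:**
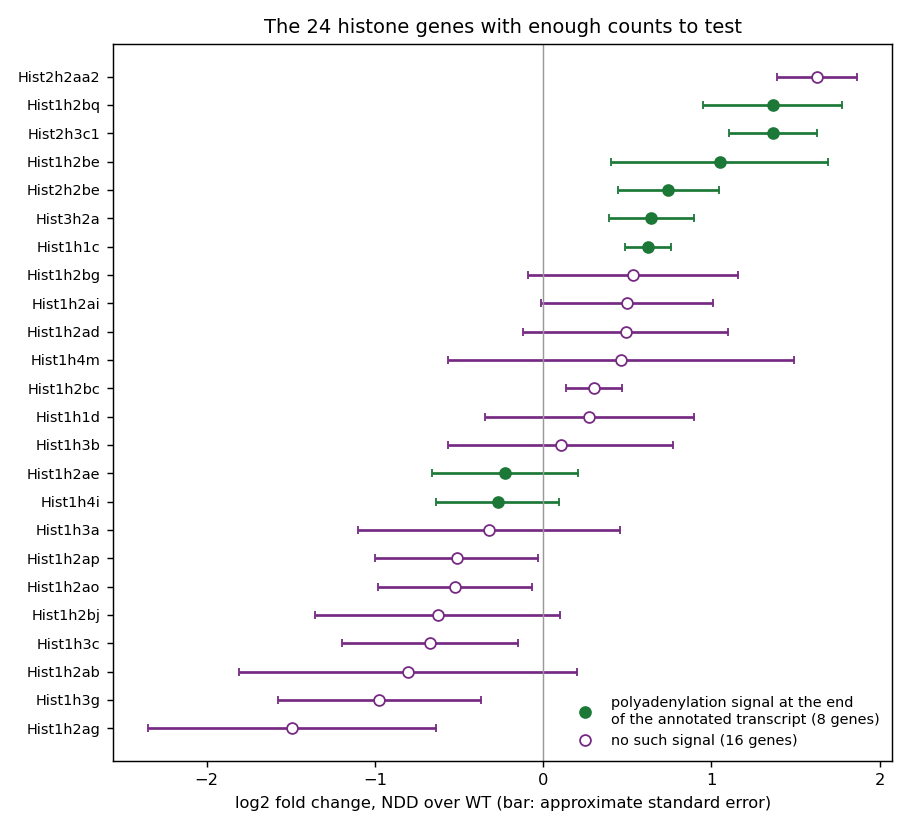
Log2 fold change, NDD over WT, of the 24 histone genes with enough counts to test, with bars of 1 approximate standard error; filled green points have a polyadenylation signal in the last 50 bases of the annotated transcript and open purple points do not. Of the 7 genes at the top, from Hist1h1c (0.62) to Hist2h2aa2 (1.63), 6 are green, and all genes below Hist1h4i (-0.27) are purple.

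The tested members were then described by the end of their annotated transcript, a grouping made after the values were seen and given without a test. Of the 8 tested members with a polyadenylation signal in the last 50 bases, 6 had a log2 fold change above 0 (median 0.69), and in 5 the groups did not overlap, all 5 higher in NDD; over all genes tested 32.0% did not overlap and 15.8% were higher in that way. They were Hist1h1c, Hist3h2a, Hist1h4i, Hist2h3c1, Hist1h2ae, Hist2h2be, Hist1h2bq and Hist1h2be. Their summed level was 232 and 252 TPM in NDD and 175, 166 and 165 TPM in WT, so both NDD libraries lay above all WT libraries. Hist1h1c made up most of that sum, with a mean of 155 of 242 TPM in NDD. In NDD replicate 1, Hist1h1c had 1095 counts for 151 TPM, and Hist2h2be 160 counts for 4.67 TPM. Their annotated lengths, 1560 and 2620 bases, are closer together than these values imply. The models counted by the authors may therefore lack the signal in some of the 8, Hist1h1c among them. Of the 16 tested members without a signal, 8 had a log2 fold change above 0 and 8 below (median -0.11), and the groups did not overlap in 3, with 1 higher and 2 lower in NDD. Their summed level was 778 and 344 TPM in NDD and 625, 635 and 709.9 TPM in WT, with NDD replicate 1 above and NDD replicate 2 below all WT libraries. Hist2h2aa2, with the largest log2 fold change of all tested members, belongs to the latter group. Without NDD replicate 2 the medians were 0.50 with and 0.12 without a signal, and without NDD replicate 1 they were 0.83 and -0.84.

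Hist1h2ao and Hist1h2bq lie head to head. The pair is transcribed in opposite directions in RefSeq, and the 167 bases between their starts are shown because the rows of both genes are described above, 1 low and 1 high in NDD replicate 2. Capitals mark the letters CCAAT on either strand.
Hist1h2ao and Hist1h2bq (chr13:21810200-21810366, plus strand, GRCm38.p6): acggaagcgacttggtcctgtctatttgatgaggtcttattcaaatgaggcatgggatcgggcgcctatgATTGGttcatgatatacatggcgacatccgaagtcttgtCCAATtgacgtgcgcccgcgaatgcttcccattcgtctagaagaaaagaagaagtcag
A run of 150 bases of this stretch is also found in the promoter window of Hist1h2ap, so the copies agree there as well. In NDD replicate 2, Hist1h2ao was at 6.65 CPM against 18.7 to 21.8 CPM in WT, while Hist1h2bq was at 5.05 CPM against 1.29 to 2.38 CPM in WT. Hist1h2ao shares 93.8% of its 31-base sequences with Hist1h2ap, and Hist1h2bq 98.3% with Hist1h2br, so neither level can be assigned to this promoter alone. Of 61 member promoter windows in the RefSeq table, which cover 60 of the 67 members, 52 held CCAAT on either strand (85.2%, against 37.4% of 32851 windows of all genes). The letters were in all 6 H1, 17 H2A, 17 H2B and 9 H3 windows, but in 3 of 12 H4 windows. The octamer ATTTGCAT, known from H2B promoters, was found in 7 H2A and 7 H2B windows and in 0 windows of the other classes, that is 14 of 61 member windows against 1.74% of all windows. These counts describe letters in the windows only.

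Summed over all 67 members, the histone share was 243 and 178 unscaled CPM (per library total, without TMM) in NDD and 186, 187 and 188 in WT. NDD replicate 1 was above and NDD replicate 2 below all WT libraries, so the mean of 211 ± 46.2 in NDD (SD, n = 2) and of 187 ± 1.03 in WT (SD, n = 3) hides a split. After TMM scaling NDD replicate 2 was nearly level with WT, at 184.3 CPM against 184.6, 188.3 and 185.8, while NDD replicate 1 was at 237.9. Without Hist1h2ap and Hist1h2ao, an alternative chosen after the data were seen, the sum was 155 and 154 in NDD and 113, 110.0 and 98.5 in WT. The NDD libraries then lay close together and above all WT libraries. In TPM the sum over all members was 1040 and 620.1 in NDD and 841, 834 and 912 in WT.

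Genes that act together with histones in S phase were read from the same fit. The 36 S phase genes, most of them parts of the replication machinery, had log2 fold changes below 0 without exception (median -0.56). Of these, 0 passed in edgeR or DESeq2, and 0 had an unadjusted p under 0.05, where 11.2% of all genes tested did. In all 36 the lowest of the 5 libraries was NDD replicate 2, which was lowest for 34.9% of all genes tested. Their sum was 3055 and 1050.0 unscaled CPM in NDD and 3073, 2800 and 3380 in WT, so NDD replicate 1 lay inside the WT range as it did for Hist1h2ap. The list's median was -0.025 when NDD replicate 2 was left out, and -1.49 when NDD replicate 1 was. Mcm7, part of the replicative helicase, had a log2 fold change of -0.61 (SE 0.40), Rrm1, a subunit of ribonucleotide reductase, one of -0.62 (SE 0.39), and Mcm6 one of -0.70 (SE 0.49). The part of this shift in the low values of Hist1h2ap and Hist1h2ao was not tested.

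**Figure D4:**
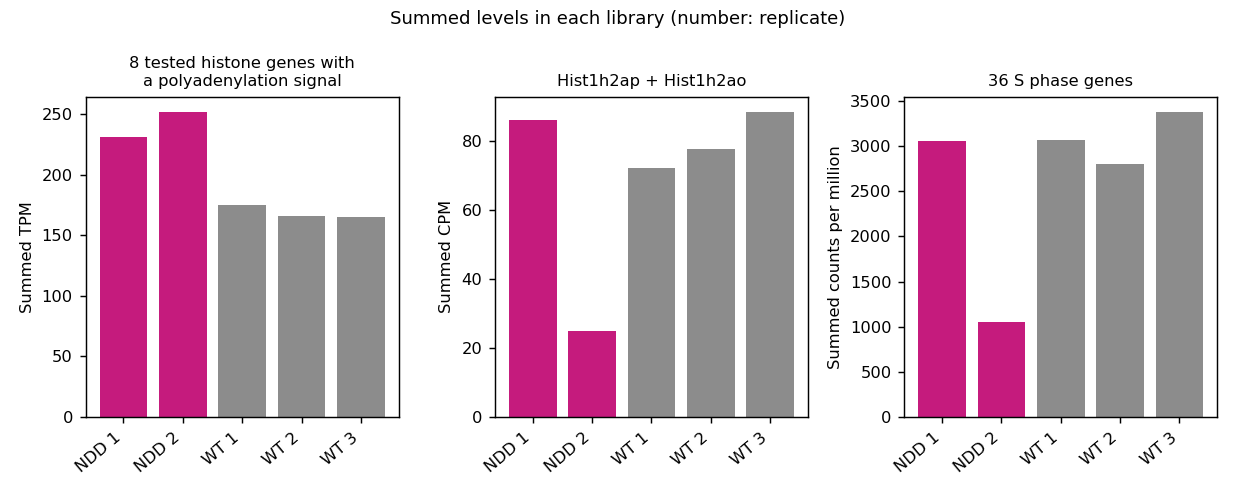
Summed level in each of the 5 libraries (magenta NDD, grey WT) of 3 sets. They are the 8 tested histone genes with a polyadenylation signal in the annotated transcript (TPM), Hist1h2ap and Hist1h2ao (CPM), and 36 S phase genes (unscaled CPM). NDD replicate 2 has the highest sum in the first panel (252 TPM) and the lowest in the others (25.04 CPM and 1050.0 unscaled CPM).

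Most factors that handle histones and their mRNA were lowest in NDD replicate 2, 16 of 18 processing genes and 18 of 19 chaperone genes. That library was lowest for 34.9% of all genes tested. All 18 tested genes of histone mRNA processing and decay had log2 fold changes below 0 (median -0.23), all 19 histone chaperone genes too (median -0.39), and edgeR called 0 of either list. At an unadjusted p under 0.05 there were 0 processing genes and 3 chaperone genes, all 3 lower, where 4.68% of all genes tested were lower. DESeq2 called 2.54% of its genes and 1 chaperone gene, Hjurp. Hjurp, the chaperone of the centromeric H3 variant, was named after its values were seen. It was at 122 and 120.1 CPM in NDD and at 229, 192 and 226 CPM in WT, low in both NDD libraries, with a log2 fold change of -0.83 (adjusted p 0.144 by edgeR, SE 0.13), and -0.80 without NDD replicate 2. The median without NDD replicate 2 was -0.051 for the processing genes and -0.044 for the chaperones. Slbp, which binds the stem-loop, was at 65.2 and 26.9 CPM in NDD and at 59.4, 59.1 and 71.8 CPM in WT. Its log2 fold change was -0.46 (adjusted p 0.570 by edgeR, SE 0.36), 0.05 without NDD replicate 2 and -1.24 without NDD replicate 1. Slbp was named after its values were seen. By the fixed rule, the processing list was led by Sympk (-0.15, SE 0.11), a scaffold of the cleavage complex, Srrt (-0.42, SE 0.28) and Cpsf1 (-0.28, SE 0.13). The chaperone list was led by Nap1l1 (-0.54, SE 0.21), Ssrp1 (-0.39, SE 0.22) and Rbbp7 (-0.55, SE 0.28), all as log2 fold changes. Of the 12 polyadenylation factors, 3 were higher and 9 lower in NDD (median -0.19), and 0 passed in edgeR or DESeq2. At an unadjusted p under 0.05 there were 2 of them, all lower, where 4.68% of all genes tested were lower. Pabpc1, the cytoplasmic poly(A)-binding protein, had a log2 fold change of -0.12 (SE 0.13), Papola, a poly(A) polymerase, -0.20 (SE 0.15), and Pabpn1 0.01 (SE 0.11).

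The replication-independent histone variants, most of whose genes make ordinary polyadenylated mRNA, had a far larger summed level than the members, though single variants did not all exceed the most abundant members. Their sum was 2394 and 1988 unscaled CPM in NDD and 2193, 2273 and 2357 in WT. Of the 10 tested variants 6 were higher and 4 lower in NDD (median log2 fold change 0.03), and 0 passed in edgeR or DESeq2. At an unadjusted p under 0.05 there was 1 variant, a lower one, where 4.68% of all genes tested were lower. The median of the variants was -0.33 when NDD replicate 1 was left out and 0.12 when NDD replicate 2 was. H3f3b and H3f3a, the genes of the H3.3 protein, had log2 fold changes of 0.01 (SE 0.13) and 0.14 (SE 0.12), and the linker variant H1f0 one of 0.21 (SE 0.18). H2afx, a variant gene that also carries a stem-loop in the annotation, was named after its values were seen. It was at 235 and 98.4 CPM in NDD and at 229, 188 and 225 CPM in WT, low in the same library as Hist1h2ap.

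Depth and marker genes were checked across the libraries. NDD totals were 22372029 and 22122748 counts and lay inside the WT range. The 10 epithelial markers summed to 14788 and 13445 unscaled CPM in NDD and to 12859, 14058 and 13413 in WT. Of these, 8 were higher and 2 lower in NDD (median log2 fold change 0.07), and 0 passed in edgeR or DESeq2. The 3 highest in CPM were Krt8 (0.04, SE 0.15), Krt19 (-0.09, SE 0.15) and Lgals4 (0.30, SE 0.13). Krt20, a keratin of differentiated surface cells, had the largest log2 fold change of the 10. It was at 59.99 and 130.4 CPM in NDD and at 35.03, 35.3 and 4.93 CPM in WT. Both NDD libraries lay above all WT libraries and NDD replicate 2 was the highest (log2 fold change 1.93, adjusted p 0.440 by edgeR, SE 0.77). The fibroblast list summed to 9.07 and 25.5 in NDD and to 7.45, 5.37 and 3.95 in WT, with 1 of 10 genes (Pdgfrb) high enough to test and Lum and Thy1 at 0 counts in all libraries. Pdgfrb, a receptor of mesenchymal cells, was at 8.21 and 25.8 CPM in NDD and at 6.31, 4.48 and 3.43 CPM in WT. Its log2 fold change was 1.85 (adjusted p 0.369 by edgeR, SE 0.51), and DESeq2 called it. Without NDD replicate 2 the log2 fold change of Pdgfrb was 0.81, and without NDD replicate 1 it was 2.44. The immune list summed to 0.760 and 1.49 unscaled CPM in NDD and to 1.67, 1.88 and 1.91 in WT, with Cd3g, Cd4 and Cd8b1 among its genes at 0. Itgam, an integrin of myeloid cells and the only immune gene tested, had a log2 fold change of -0.59 (adjusted p 0.609 by edgeR, SE 0.52). The endothelial list summed to 1.30 and 0.949 in NDD and to 2.14, 2.27 and 2.77 in WT, with Kdr at 0. Egfl7, the only endothelial gene tested, was at 0.918 and 0.796 CPM in NDD and at 2.07, 1.89 and 2.70 CPM in WT, without overlap (log2 fold change -1.37, adjusted p 0.385 by edgeR, SE 0.39). Krt20 was named after its values were seen, and the part of Krt20, Pdgfrb, Itgam and Egfl7 in the histone values was not tested.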

How the data were processed

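Polyadenylated RNA of 5 libraries was sequenced. The authors deposited estimated counts per gene (expected counts, as whole numbers and with no normalization) and TPM values. Bowtie2, RSEM and mm10 are named, with no versions, in the submitters' processing notes. The gene models and the strand setting are not given in the sources used here. All 10 value columns matched a sample title, and 0 were left over.

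The deposited counts were compared with edgeR 4.0.16 in R 4.3.3 (quasi-likelihood, robust, TMM factors, filterByExpr, no covariate), with p-values adjusted by Benjamini and Hochberg over 13501 genes and called under 0.05. Each standard error was derived from the F statistic and the log2 fold change. CPM of single genes and pairs use TMM-scaled library sizes, and sums over lists use raw totals. The fit was tested on simulated data.

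Members and lists were chosen with earlier results of these data known. Named members are the 12 highest in mean TPM, those called, the 5 largest log2 fold changes each way and the top gene of each class; of each list of related genes, the 3 highest in CPM. Replicate numbers are shared between groups, but no label says that they mark a shared litter, batch or day. Sequences and coordinates come from GENCODE M21 (GRCm38) and the RefSeq promoter table (GRCm38.p6), matched by symbol for all 67 members and by Entrez gene for 60.

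The tried alternatives were other scaling factors (upper-quartile, RLE), another filter (none, or 10 counts in all libraries), DESeq2 1.42.0, limma 3.58.1 (voom, or log2 TPM), a replicate block, sums over classes or near copies, and leaving out each library.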

Additional observations from a re-analysis of the deposited data

How the results depend on the processing

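The count of 0 called histone genes held in every fit run except 3: it was 1 with no filter on low counts (Hist2h2aa2; 0.302% of all genes called), 3 with DESeq2 (Hist2h2aa2, Hist2h3c1 and Hist1h1c; 2.54% called), and across the 5 fits that left out a library it ranged from 0 to 5, with 5 without NDD replicate 1 (Hist1h2ap, Hist1h2ao, Hist1h1c, Hist2h3c1 and Hist2h2aa2; 8.62% called). That fit has 1 NDD library, which is assumed to vary like WT. The 12 called genes of the whole table became 58 with no filter, 365 with DESeq2, 24 with limma-voom, 4 with 10 counts in every library, 21 under the block, whose fit also lacks WT replicate 3 (3 called without that library and with no block), and 0 to 1207 when a library was left out (0 without WT replicate 1, where 1211 had an unadjusted p under 0.05).

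The median log2 fold change of the histone genes tested, 0.29, was 0.63 over the 13 members with 10 counts in every library and 0.38 with the replicate block. Over sets that include low members it was -0.38 with no filter, -0.37 with DESeq2, -0.17 on log2(TPM + 1) with or without a filter and -0.21 on log2(TPM + 0.1), and without a library it ranged from -0.18 to 0.39 over the 20 to 31 members each such fit tested. The member set changes with these settings. By 1 TPM in every library 20 members were detected in place of 13. The log2 ratio of the summed share, 0.17, was -0.055 in TPM, 0.18 with TMM-scaled sizes, 0.40 without Hist1h2ap, 0.53 without Hist1h2ap and Hist1h2ao, and -0.071 to 0.38 without a library.

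Without a library the list medians ranged from -1.49 to -0.025 for S phase genes (under the replicate block, -0.68), from -0.78 to -0.044 for chaperones, from -0.47 to -0.051 for processing genes, from -0.31 to -0.061 for polyadenylation factors and from -0.33 to 0.12 for variants. Hist1h2ap ranged from -1.69 to 0.14, Hist1h2ao from -1.61 to 0.10, Hist1h2ag from -4.19 to -0.61, Hist1h2ab from -3.67 to 0.093 and Hist1h2be from -0.10 to 1.68. Within the Hist1 cluster, summed classes gave -0.51 for H2A, against Hist1h2ai, and 0.36 for H2B, against Hist1h2bj; summed H2A was 1.61 in Hist2 and 0.64 in Hist3, and summed H2B 0.73 in Hist2. H3f3b was -0.0076 on log2(TPM + 1) and ranged from -0.019 to 0.087 without a library. Pabpn1 was -0.015 on log2(TPM + 1) and -0.0051 with the block, and ranged from -0.0058 to 0.045 without a library. Of the 18 named members, 12 kept their direction under RLE factors, DESeq2, log2(TPM + 1), the block, the summed fits and each left-out library, where these could test them; single genes were not followed through the other alternatives. The block changed no call of a histone gene, and deviations of same-numbered libraries correlated at 0.0129 and 0.301, and the numbers were not taken to pair libraries. The causes of these shifts were not tested.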
